A study of Mus musculus with 2 samples.

Results

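Among the cells sorted as γδ T cells from mouse liver, 389 cells carried at least 3 UMIs in sum over 5 genes. These were the transcription factor genes Tcf7, Lef1 and Sox4, the chemokine receptor gene Ccr7 and Dapl1. The 389 cells also held at most a few UMIs of the genes used to set other cells aside. They made up 4.82% of the 8075 kept liver cells (exact binomial 95% interval 4.36% to 5.31%). The cells came from 1 library of untreated wild type C57BL/6J mice aged 8 weeks, in which hepatic mononuclear cells had been sorted for CD3e and the γδ T cell receptor, and how many animals went into the library was not given in the sources used here. A second library, from the thymus of mice of the same strain, genotype and age, brings the series to 12426 kept cells and is not compared here.

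The cells were chosen by their UMIs, the individual mRNA molecules counted for a gene in a cell. A cell barcode was kept with 800 to 4000 detected genes and at most 6% mitochondrial UMIs. It was then chosen if the UMIs of Dapl1, Sox4, Tcf7, Lef1 and Ccr7 summed to at least 3, and if it stayed within the limits on 4 gates. These were the natural killer (NK) genes Tyrobp and Ncr1, at most 1 UMI together, Il4 at 0, the interleukin-17 associated genes Il17a, Tmem176a, Tmem176b and Ccr6, at most 2, and the macrophage genes Lyz2, C1qa, C1qb and C1qc, at most 3. Of 504 cells that reached the sum, 115 fell past a limit, 80 of them past the NK limit and 38 past the interleukin-17 limit. The remaining 389 are called Tcf7/Lef1 cells below, and the other 7686 kept liver cells are the comparison.

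γδ T cells leave the thymus at an immature stage or already committed to making interferon-γ or interleukin-17. TCF-1, encoded by Tcf7, and LEF-1 are related DNA-binding proteins that act early in the T cell lineage and are kept in naive and memory T cells, and both are lost as effector function is acquired. CCR7 brings lymphocytes to lymph nodes, S1PR1 lets them leave tissue for the blood, and CD24 and CD73 are the surface proteins by which stages of γδ T cell maturation are usually told apart.

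All levels are in CPM, the number of UMIs of a gene per 1000000 UMIs of the group of cells, and the error is an exact Poisson 95% interval. The Tcf7/Lef1 cells held 1232560 UMIs, and the other cells 22935477. With 1 liver library there is no replicate and no test: the intervals cover counting error only, and cells are not replicates. The median depth was 2852 UMIs per Tcf7/Lef1 cell and 2737 per other cell, with medians of 1058 and 1133 detected genes. Ribosomal-protein genes gave a median of 33.2% of the UMIs of a Tcf7/Lef1 cell and 23.5% of those of another cell, and the mitochondrial share was 2.43% and 1.91%. The liver and thymus libraries shared 60 cell barcodes, of which 3 were Tcf7/Lef1 cells, and without the shared barcodes 353 genes were higher and 1344 lower, against 357 and 1351 with them (the comparison is given further on).

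The 7 marker genes lie on 5 chromosomes of the GRCm38 assembly in GENCODE vM21, and all are protein-coding. The coordinates are those of whole genes, with introns and untranslated ends. Dapl1, a small death-associated protein homologue, lies at chr2:59484653-59505020 on the plus strand. Lef1 lies at chr3:131110471-131224356, plus strand, and Tcf7 at chr11:52252371-52283014, minus strand. Ccr7 lies at chr11:99144196-99155077, minus strand, and Sox4, a single-exon SRY-related factor gene, at chr13:28948919-28953713, minus strand. Nsg2, a neuron-specific vesicle protein gene, lies at chr11:32000463-32059202, plus strand, and Sidt1, a SID1-family transmembrane protein gene, at chr16:44240180-44333196, minus strand.

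Since 2 of the genes that chose the cells encode factors of the TCF/LEF family, the RefSeq promoter windows were searched on both strands, over the 250 bases before each listed start, for the letters CTTTGA that these factors bind. The letters were found for 1 of the 6 markers with a window, Lef1, for 2 of the 12 with a window among the 15 genes with the largest ratios described below, Gm8369 and Tsc22d1, and for 15.8% of all 27025 genes with a window. The forkhead letters GTAAACA were found for Dapl1 alone among the 6 markers, and for 3.54% of all genes. The letters of the Runx motif, TGTGGTT, were in none of the 6 marker windows, in Tsc22d1 among the 12, and in 5.08% of all genes. The 4 sites below are the matches among the markers and in Gm8369, shown with the motif in capitals and on the plus strand of GRCm38.p6, where TCAAAG is CTTTGA on the other strand. Both Lef1 sites lie before an internal RefSeq start inside the gene, not before its first exon, and a match of letters is no evidence of binding.
Lef1, chr3:131156103-131156130: aaaatacatggTCAAAGgaaaataggta
Lef1, chr3:131156163-131156190: attgtctgttcTCAAAGtcaggtcttgc
Dapl1, chr2:59484478-59484506: cactctgtcctGTAAACAtctacctggct
Gm8369, chr19:11491904-11491931: agtaatttctaCTTTGActcctcagagt

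Among the kept liver cells outside the 4 gates, the sum of the 5 rule genes fell off without a gap. There were 1800 cells at 0, 690 at 1, 261 at 2, 96 at 3, 133 at 4 or 5 and 160 at 6 or more, with a highest sum of 19. Tcf7 had a UMI in 292 of the 389 Tcf7/Lef1 cells (75.1%) and Lef1 in 283 (72.8%). Ccr7 had one in 192 cells (49.4%), Sox4 in 143 (36.8%) and Dapl1 in 98 (25.2%). Most cells were thus chosen on several genes at once: 161 cells had 3 of the 5 genes, 148 had 2, 43 had 4 and 5 had all of them, while 32 were chosen on UMIs of a single gene.

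**Figure D1:**
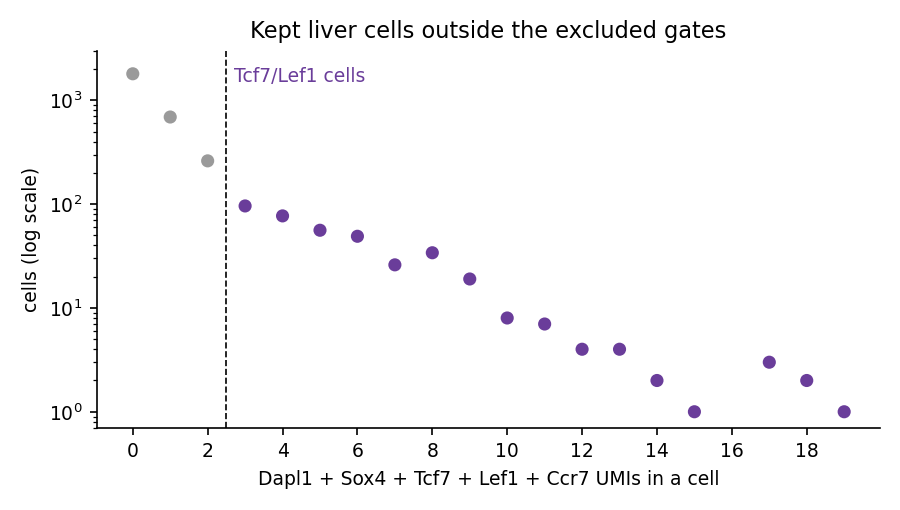
Number of kept liver cells outside the excluded gates (log scale) at each summed UMI count of the 5 rule genes, with the Tcf7/Lef1 cells to the right of the dashed line. The numbers run down from 1800 cells at 0 through 261 at 2 and 96 at 3 to 1 cell at 19, with no gap at the threshold.

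By construction the rule genes were high in the Tcf7/Lef1 cells, and their levels are given as a description. Tcf7 was at 458 CPM (421 to 498) in these cells and at 47.4 CPM in the others, and Lef1 at 454 CPM (417 to 493) and 57.9 CPM. Ccr7 was at 433 CPM (397 to 472) and 9.50 CPM, Sox4 at 253 CPM (226 to 283) and 6.80 CPM, and Dapl1 at 187 CPM (164 to 213) and 3.401 CPM.

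Whether the 5 genes went together was described by leaving each out of the rule in turn. Cells outside the gates with at least 2 UMIs of the other 4 genes were compared with those that had none of them, so that the gene left out chose no cell. Each of the 5 genes was higher in the cells chosen on the other 4. The 5 genes had been put together with earlier results of these data known, so these ratios describe them and test nothing. Dapl1 was at 106 CPM (92.5 to 122) against 5.22 CPM (3.41 to 7.66), a ratio of 20.4 (13.5 to 31.9), and had a UMI in 14.6% of 629 cells against 0.881% of 1816. Sox4 was at 142 CPM against 8.01 CPM, a ratio of 17.7 (12.7 to 25.4), and Ccr7 at 231 CPM against 18.8 CPM, a ratio of 12.3 (9.79 to 15.5). The ratios of the pair of related factor genes were smaller, and both were also detected in a larger share of the cells without the other 4. Tcf7 was at 323 CPM against 63.7 CPM, a ratio of 5.07 (4.41 to 5.83), with a UMI in 56.3% and 13.3% of the cells. Lef1 was at 314 CPM against 87.4 CPM, a ratio of 3.59 (3.16 to 4.07), with a UMI in 52.7% and 21.2%. The cells chosen on the other 4 genes were slightly deeper, with median UMIs of 2830 to 2886 against 2603 to 2630.

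The 2 marker genes that the rule did not use, Nsg2 and Sidt1, were both higher in the Tcf7/Lef1 cells. They were listed as markers with earlier results of these data known, so their levels are a description and no independent check. Nsg2 was at 70.6 CPM (56.5 to 87.1) against 9.03 CPM (7.84 to 10.3), a ratio of 7.82 (6.02 to 10.1). Sidt1 was at 46.2 CPM (35.0 to 59.9) against 13.4 CPM (11.97 to 15.02), a ratio of 3.44 (2.55 to 4.58). Each was detected in a minority of these cells: with every cell thinned at random to 1500 UMIs, a Nsg2 UMI was found in 7.73% of Tcf7/Lef1 cells and 1.18% of other cells, and unthinned in 18.3% and 2.37%.

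The classical genes of an immature stage went different ways. Cd24a, which encodes CD24, was at 96.5 CPM (80.0 to 116) in the Tcf7/Lef1 cells and at 5.36 CPM (4.46 to 6.40) in the others, a ratio of 18.0 (13.9 to 23.4), yet it had a UMI in only 53 cells, 13.6% (10.4% to 17.4%), against 1.09% of the others. Thinned to 1500 UMIs, the shares were 7.99% and 0.690%, and 0.466% in the cells past the NK limit. Nt5e, which encodes CD73, was at 17.0 CPM (10.5 to 26.0) and 17.8 CPM (16.1 to 19.6), a ratio of 0.955 (0.585 to 1.48). A Cd24a and a Nt5e UMI were found together in 1 of the 389 cells and in 6 of the 7686. The recombinase genes Rag1 and Rag2 and the pre-T cell receptor gene Ptcra had no UMI in the Tcf7/Lef1 cells, where 3 counts would have been 2.43 CPM. They had none in the cells past the interleukin-17 limit either. Dntt, also listed for immature γδ T cells, had 12 UMIs in the Tcf7/Lef1 cells, 9.74 CPM (5.03 to 17.0). It was at 0.311 CPM in the cells past the interleukin-17 limit. Since the label of precursor-like cells rests on genes of the rule and on 2 further markers, the cells are named here by their rule.

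Placed among all kept liver cells by genes other than those of the rule, the Tcf7/Lef1 cells lay mostly beside each other. Of the 30 nearest neighbours of such a cell, on 30 principal components of 2000 variable genes without the rule genes, a mean of 49.8% were Tcf7/Lef1 cells (median 56.7%, quartiles 30% and 70%). For the other kept cells the mean was 2.45%, and by their number alone the Tcf7/Lef1 cells are 4.82%. That base takes in the cells past the gates, whereas outside the gates the 389 cells stand beside only 2751 others. Ribosomal-protein genes were not excluded from the variable genes, and their median share was 33.2% in the Tcf7/Lef1 cells and 23.5% in the others. The part of the gates and of these genes in the neighbour shares was not tested. A majority of the neighbours were Tcf7/Lef1 cells in 214 of the 389 cells, and 17 cells had none. The share followed the rule sum, from 35.6% at a sum of 3 to 47.6% at 4 or 5 and 60.2% at 6 or more. It was also 20.1% around the 261 cells just below the threshold, at a sum of 2, and 6.47% and 2.47% around those at 1 and 0.

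Across all genes, 9672 had at least 50 UMIs over both groups and lay outside the rule, mitochondrial and ribosomal-protein genes. Of these, 357 (3.69%) were at least 2-fold higher in the Tcf7/Lef1 cells and 1351 (14.0%) at least 2-fold lower, and the median log2 ratio of all tested genes was −0.16. A gene with 50 UMIs would be expected to have 2.55 of them in the Tcf7/Lef1 cells at an equal level, so part of these calls rests on few molecules: 294 of the 357 and 864 of the 1351 had a counting interval of the ratio that excluded 1. Among the 1269 genes with at least 100 CPM in one of the groups, 35 were higher and 97 lower. A total without mitochondrial and ribosomal-protein genes moved the median log2 ratio to 0.06 and gave 554 genes higher and 1067 lower, so that the higher genes went from 20.9% to 34.2% of the calls. Fewer genes passed the limit once the gates were applied to both groups: against the 2751 other cells that also lay outside the gates, 197 of 7837 genes were higher and 656 lower.

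**Figure D2:**
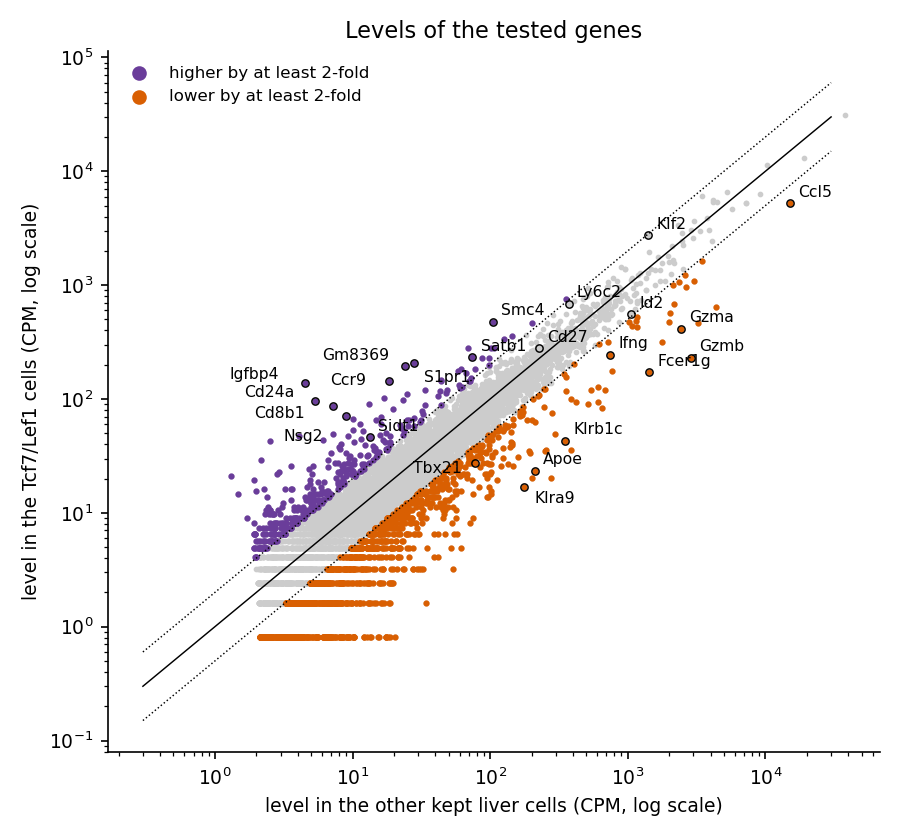
Level of each tested gene in the other kept liver cells (horizontal axis) and in the Tcf7/Lef1 cells (vertical axis), both in CPM on log scales, with equal levels on the solid line, 2-fold ratios on the dotted lines, and genes without a UMI in the Tcf7/Lef1 cells left out. Igfbp4, Cd24a, Cd8b1 and S1pr1 stand above the upper dotted line, and Gzmb, Gzma, Fcer1g, Klrb1c and Ccl5 below the lower one.

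Of the 5 genes with the largest ratios, among the reported genes at 100 CPM or more in one of the groups, 2 encode receptors that guide lymphocyte traffic, Ccr9 and S1pr1. The largest ratio was that of another gene. Igfbp4, a binding protein of insulin-like growth factors, was at 138 CPM (118 to 160.3) against 4.49 CPM (3.67 to 5.45), a ratio of 30.7 (23.9 to 39.6). An Igfbp4 UMI was found in 23.1% of the Tcf7/Lef1 cells and in 0.859% of the others, or, thinned to 1500 UMIs, in 13.1% and 0.443%. S1pr1 was at 205 CPM (181 to 232) against 27.8 CPM (25.7 to 30.02), a ratio of 7.39 (6.36 to 8.56). Its UMIs were found in 42.2% of the Tcf7/Lef1 cells and 6.61% of the others, or, thinned, in 26.3% and 3.59%, with 1.61% in the cells past the NK limit and 8.48% in the 955 cells past the interleukin-17 limit. Ccr9, a receptor for the thymic and intestinal chemokine CCL25, was at 144 CPM against 18.4 CPM, a ratio of 7.82 (6.53 to 9.35).

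The other 12 of the 15 genes with the largest ratios at that level had ratios of 2.74 to 8.03. Gm8369, a predicted gene on chromosome 19, was at 194 CPM (170.1 to 220.1) against 24.2 CPM. Tsc22d1, a leucine zipper factor, was at 102 CPM against 16.8 CPM, and Smc4, a subunit of condensin, at 479 CPM (441 to 519) against 105 CPM, a ratio of 4.58 (4.18 to 5.01). Dusp10, a phosphatase of the stress kinases, was at 279.9 CPM against 68.6 CPM, and Satb1, a chromatin organiser of the T cell lineage, at 232 CPM against 74.1 CPM. Rasgrp2, an exchange factor that activates the small GTPase Rap1, was at 279 CPM (250.4 to 310.2) against 102 CPM. The remaining genes were Arl5c, the actin-binding Actn1 and Pdlim1, Pik3ip1, an inhibitor of phosphoinositide 3-kinase, Frat2, which binds GSK3 in Wnt signalling, and Rgs10, a regulator of G protein signalling. Against the other cells outside the gates, all 15 genes still had a log2 ratio of at least 1.13, the lowest being that of Satb1.

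Of 15 listed transcription factors of the T cell lineage and of quiescence, all tested, 7 were at least 2-fold higher and none lower, with a median log2 ratio of 0.96 against −0.16 over all genes. Myb, needed in early T cell development, was at 43.0 CPM (32.2 to 56.2) against 2.53 CPM (1.92 to 3.27), a ratio of 17.0 (11.5 to 25.1), with a UMI in 11.1% and 0.664% of the cells. Foxp1 and Foxo1, forkhead factors of the resting state, were at 333 CPM and 113 CPM against 127 CPM and 47.4 CPM, and Klf3 at 231 CPM against 87.4 CPM. Bach2, a repressor of effector genes, was at 18.7 CPM against 6.23 CPM, and Id3, an inhibitor of E proteins, at 118 CPM against 43.4 CPM, a ratio of 2.73 (2.28 to 3.25). Klf2, which activates S1pr1, was at 2748 CPM (2656 to 2842) against 1413 CPM, a ratio of 1.95 that lay just within the 2-fold limit and passed it with the total free of mitochondrial and ribosomal-protein genes, at a log2 ratio of 1.18. Id2, by contrast, the Id protein of effector cells, was at 553 CPM (513 to 596) against 1052 CPM, a ratio of 0.526.

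In the list of Ikaros, Id and E proteins, 3 of 8 genes were higher and 1 lower. Ikzf2, encoding Helios, was at 281 CPM against 107 CPM, a ratio of 2.61 (2.33 to 2.93), and the E protein gene Tcf4 at 16.2 CPM (9.91 to 25.1) against 3.23 CPM. Ikzf3, encoding Aiolos, was at 51.9 CPM (40.0 to 66.3) against 114 CPM, and lay within the limit against the other cells outside the gates, at a log2 ratio of −0.92. Of 14 tested genes of the Notch and Wnt pathways 2 were higher and 1 lower, with a median log2 ratio of 0.01. The Notch target Hes1 was higher, at 48.7 CPM against 15.8 CPM, with a UMI in 20 cells (5.14%), and the corepressor gene Tle1 passed the limit on 6 UMIs, with an interval of the ratio from 0.798 to 5.32.

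Of 8 tested genes of tissue exit and lymphoid homing, 3 were higher, S1pr1, Ccr9 and Cxcr4, and none lower, with a median log2 ratio of 0.78. Of 12 tested genes listed for immature γδ T cells, 5 were higher and 2 lower, with a median of 0.33. The 5 were Cd24a, Ccr9, Hes1, Ikzf2 and Itm2a. Maf and Blk, which are tied to interleukin-17 producing γδ T cells, were the lower ones, at 21.9 CPM and 14.6 CPM against 67.8 CPM and 56.3 CPM. In the cells past the interleukin-17 limit, which the rule kept out, they were at 188 CPM and 347 CPM. Against the other cells outside the gates Maf was still lower, at a log2 ratio of −1.67, whereas Blk, at −0.11, and Itm2a, at 0.91, lay within the limit, and the list had 4 of 11 genes higher and 1 lower, with a median of 0.91. Cldn10 and Cd200 had 13 UMIs each in the Tcf7/Lef1 cells against 8 and 19 in all others, too few to enter the comparison. With the total free of mitochondrial and ribosomal-protein genes, 8 of the 15 lineage factors and 4 of the 8 homing genes were higher. The numbers were 6 and 2 against the other cells outside the gates, with Klf3 and Cxcr4 within the limit at log2 ratios of 0.86 and 0.69.

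**Figure D3:**
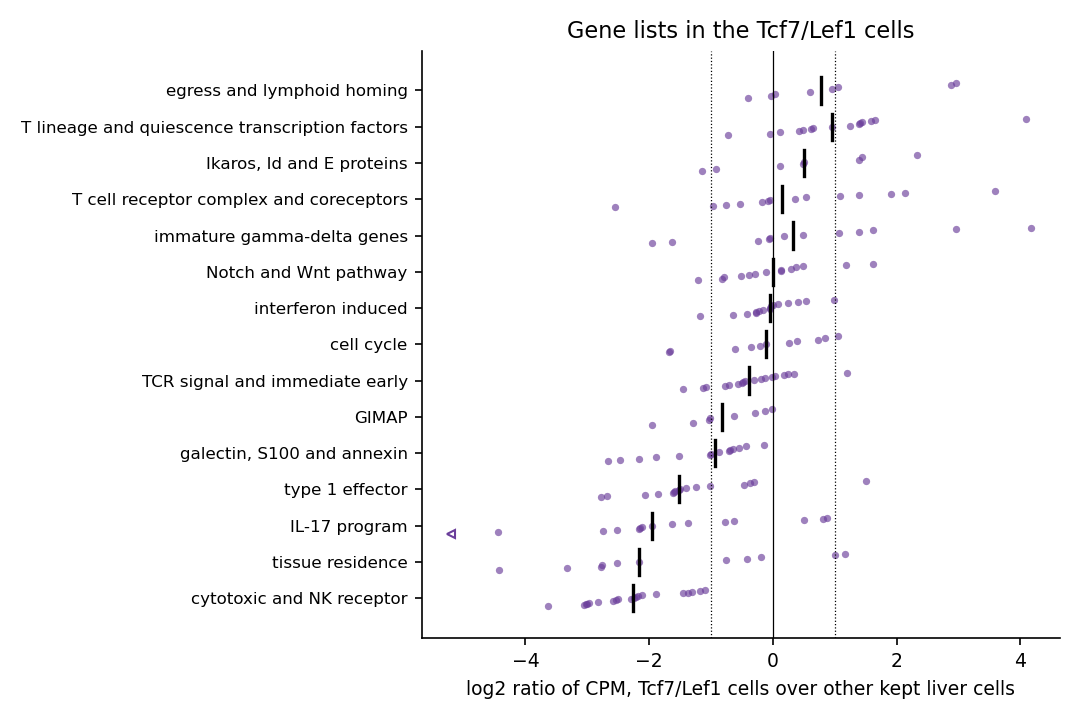
Log2 ratio of CPM in Tcf7/Lef1 cells over other kept liver cells for the tested genes (points) of 15 gene lists, with the median of each list as a bar and 2-fold ratios as dotted lines. An open triangle at the left edge is a gene without a UMI in the Tcf7/Lef1 cells. The lineage factor list has a median of 0.96 and the homing list one of 0.78, and the cytotoxic list, with a median of −2.26, lies wholly below −1.

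Among the effector genes the cytotoxic ones stood lowest. All 20 listed cytotoxic and NK receptor genes were at least 2-fold lower in the Tcf7/Lef1 cells, with a median log2 ratio of −2.26. The cells with most NK transcripts had been kept out by the limit on Tyrobp and Ncr1, but against the other cells outside the gates 18 of the 20 were still lower, with a median of −1.97. Gzmb, the granzyme B gene, was at 231 CPM (205 to 259.7) against 2868 CPM (2846 to 2889.7), 12.4-fold lower. It was at 4579 CPM in the 3861 cells past the NK limit, and its log2 ratio against other cells outside the gates was −2.43. Gzma was at 415 CPM against 2416 CPM, and Nkg7, a granule protein gene, at 1219 CPM against 2608 CPM, 2.14-fold lower, though within the limit outside the gates, at a log2 ratio of −0.97.

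The 10 genes with the smallest ratios, among those at 100 CPM or more, were 7.18-fold to 13.7-fold lower. They held the NK receptor genes Klra5, Klra9, Klrb1c and Klre1, the signalling chain gene Fcer1g, Gzmb, the fibrinogen-like Fgl2, and Osgin1. Klra5 was at 20.3 CPM (13.1 to 29.9) against 277 CPM, Fgl2 at 35.7 CPM (25.9 to 47.9) against 388 CPM, and Klrb1c, which encodes NK1.1, at 43.0 CPM (32.2 to 56.2) against 348 CPM. The remaining 2, Cxcl2 and Apoe, are genes of macrophages, at 20.3 CPM and 23.5 CPM against 202 CPM and 210.4 CPM. Their difference was nearly absent against the other cells outside the gates, with log2 ratios of −0.34 and −0.18. In the 107 cells past the macrophage limit Cxcl2 and Apoe were at 6367 CPM and 9961 CPM. They were at 780.4 CPM and 796 CPM in the cells past the interleukin-17 limit, where Lyz2 was at 531 CPM.

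Of 16 genes of the type 1 response, which makes interferon-γ, 12 were lower and 1 higher, with a median log2 ratio of −1.51. Ifng itself was at 246 CPM (219 to 275) against 745 CPM (734 to 757), 3.03-fold lower, and its activator gene Tbx21 at 27.6 CPM (19.1 to 38.5) against 78.2 CPM. The chemokine genes Ccl5 and Ccl4 were at 5240.3 CPM and 467 CPM against 15063 CPM and 3219 CPM. The related factor gene Eomes went the other way, at 23.5 CPM (15.8 to 33.8) against 8.24 CPM (7.11 to 9.50). Against the other cells outside the gates 9 of the 16 were lower and none higher, and Eomes lay within the limit, at a log2 ratio of 0.85. Il2rb, the interleukin-2 and interleukin-15 receptor chain, was at 201.2 CPM against 406 CPM, just past the 2-fold limit, and lay within it with the total free of mitochondrial and ribosomal-protein genes, at a log2 ratio of −0.80, and outside the gates, at −0.97.

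Of 15 genes of the interleukin-17 programme 10 were lower and none higher, with a median log2 ratio of −1.95, or −1.63 with the gene at 0 set to its bound. Against the other cells outside the gates 6 of 13 were lower and 2 higher. Il17f had 1 UMI in the Tcf7/Lef1 cells and 405 in the others. The rule kept out the cells past the interleukin-17 limit, which held 349 of these UMIs. Il7r, shared by resting T cells and interleukin-17 producers, was at 211 CPM (186 to 238) against 119.9 CPM, and the neuropeptide receptor gene Ramp1 at 118 CPM against 63.8 CPM, both within the 2-fold limit.

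Of 11 tissue residence genes 6 were lower and 2 higher, with a median log2 ratio of −2.16. Rgs1, which dampens migration, was at 647 CPM (603 to 693) against 4403 CPM, 6.81-fold lower, and Cxcr6, the receptor that keeps lymphocytes in the liver sinusoids, at 90.1 CPM (74.1 to 108) against 515 CPM. Itga1 and Prdm1 had 4 and 1 UMIs in the Tcf7/Lef1 cells, 3.25 CPM and 0.811 CPM, against 32.5 CPM and 17.5 CPM. The aryl hydrocarbon receptor gene Ahr was higher, at 73.8 CPM against 32.8 CPM, and Itgae at 24.3 CPM (16.4 to 34.7) against 12.2 CPM. Cd69 was at 404 CPM and 460.3 CPM. 

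Among terminal effector genes 6 of 9 were lower, with a median log2 ratio of −1.75, or −1.60 with the genes at 0 set to their bounds. S1pr5 and Gzmk had no UMI in the Tcf7/Lef1 cells, at least 3.10-fold and 3.03-fold lower than the 7.54 CPM and 7.37 CPM of the others when 3 counts are taken as the floor. Klrg1 had 2 UMIs. Of 14 genes of galectins, S100 proteins and annexins 6 were lower and none higher, with a median log2 ratio of −0.94. S100a6 was at 319 CPM against 1760.2 CPM, and at 3391 CPM in the cells past the interleukin-17 limit, which the rule kept out. Against the other cells outside the gates 4 of the 14 were lower and none higher, with a median of −0.42. The hyaluronan receptor gene Cd44, raised on antigen-experienced T cells, was at 41.4 CPM (30.8 to 54.4) against 143 CPM (138 to 148), 3.46-fold lower. Cd27, a costimulatory receptor of interferon-γ committed γδ T cells, was at 279.9 CPM and 226 CPM, a ratio of 1.24 (1.11 to 1.38).

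In the remaining lists most genes lay within the 2-fold limit. Over all tested genes 3.69% were higher and 14.0% lower. Of 18 immediate-early genes 1 was higher, Nr4a1, at 465 CPM (428 to 505) against 202 CPM, and 3 were lower, among them Dusp1 at 969 CPM against 2657 CPM. Of 10 heat shock genes 3 were lower, with Hspa1a at 565 CPM against 2016 CPM. Of 16 interferon-induced genes only Isg15 passed the limit, at 76.3 CPM against 173 CPM, and it lay within it with the total free of mitochondrial and ribosomal-protein genes, where Ifi27l2a passed it as the higher one. Of 11 cell cycle genes 1 was higher and 2 lower, and Mki67 had no UMI in the Tcf7/Lef1 cells. Of 8 GIMAP genes, small GTPases of lymphocytes, 4 were lower, with Gimap7 at 99.8 CPM against 384 CPM. Of 12 cytokine receptor genes 2 were higher and 2 lower, the higher ones being those of the interleukin-6 receptor, Il6ra at 24.3 CPM (16.4 to 34.7) against 4.796 CPM and Il6st at 16.2 CPM against 3.66 CPM. Of 10 Bcl2 family genes 3 were lower and none higher, and of 7 inhibitory receptor genes 3 were lower and none higher. Against the other cells outside the gates the inhibitory receptor list had 1 of 6 genes higher and 2 lower. Of 8 genes of type 2 and NKT-like cells 2 were lower, Socs2 and Cd40lg, and 1 higher, Cd28. Of those 8, 3 were lower and none higher against the other cells outside the gates.

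The genes of the T cell receptor complex and its coreceptors included 5 of 14 higher and 1 lower. Cd5, a surface protein gene whose level is known to follow receptor signal strength, was at 64.9 CPM (51.5 to 80.8) against 14.8 CPM, a ratio of 4.39 (3.398 to 5.62). Themis, a thymocyte selection gene, was at 60.0 CPM against 16.0 CPM, Cd6 at 65.7 CPM against 25.03 CPM and Cd28 at 761 CPM against 357 CPM. Only 3 of the 14 were higher against the other cells outside the gates, and Cd6 and Cd28 lay within the limit, at log2 ratios of 0.58 and 0.37. Cd28 was at 829 CPM in the cells with an Il4 UMI. The CD3 chain genes Cd3e and Cd3g, which mark all T cells, were at 618 CPM and 1094 CPM against 893 CPM and 1849 CPM, within the 2-fold limit. The fifth of the higher genes was Cd8b1.

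Cd8b1, the β chain of CD8 that is typical of αβ T cells, was at 86.8 CPM (71.1 to 105) against 7.19 CPM (6.14 to 8.38), a ratio of 12.1 (9.37 to 15.5), and had a UMI in 53 Tcf7/Lef1 cells (13.6%). Thinned to 1500 UMIs, the share was 9.02%, against 0.690% of the other cells and 0.492% of those past the NK limit. Cd8a was lower, at 33.3 CPM (23.9 to 45.1) against 196 CPM, with a UMI in 30 cells (7.71%) against 24.8% of the others. Both chains were found in 10 Tcf7/Lef1 cells (2.57%) and 37 others (0.481%), Cd4 had 2 UMIs and Foxp3 had none. Of the 5 αβ T cell markers 3 were tested, with Cd8b1 and Themis higher and Cd8a lower. The 5 summed to 182 CPM (159 to 207) against 221 CPM (215 to 227). Cd8a alone gave 196 CPM of the sum in the other cells, so the sum hides the higher levels of the other 2. The T cell receptor chain genes were not analysed here, so whether these cells carried an αβ receptor was not tested. The study reports that the sorted liver cells were not purely γδ T cells. Without the 74 Tcf7/Lef1 cells that had a Cd4, Cd8a or Cd8b1 UMI, 315 were left. Of the tested genes 378 were then higher and 1472 lower than in the same 7686 other cells. The lineage factor list then still had 7 of 15 genes higher and the homing list 3 of 8, and all 20 cytotoxic genes were lower. Cd24a and Igfbp4 had log2 ratios of 4.33 and 4.92 there. Of the other cells 1972 had a coreceptor UMI and were kept. Tcf7/Lef1 cells whose coreceptor mRNA went undetected stay among the 315. The part of coreceptor-bearing cells in these values was therefore not tested.

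The markers of other cells were counted in the same way. The B cell markers summed to 56.0 CPM (43.6 to 70.8) in the Tcf7/Lef1 cells and 34.9 CPM (32.5 to 37.4) in the others, with Cd79a and Ebf1 the 2 of 4 tested genes past the fold, and 2 Tcf7/Lef1 cells had at least 2 UMIs of Cd79a and Ms4a1 together. Against the other cells outside the gates none of the 4 passed the fold. The myeloid markers summed to 257 CPM against 677 CPM, with 6 of 9 lower and S100a8 and S100a9 at 0. The rule itself kept out the cells with most Lyz2 and C1q UMIs, and against the other cells outside the gates none of the 5 tested myeloid markers passed the fold, with a median log2 ratio of 0.52. The hepatocyte markers summed to 8.11 CPM and 7.15 CPM, and the erythroid markers to 22.7 CPM and 29.3 CPM. Of the 5 progenitor markers Flt3, Cd34 and Mpo were at 0 in the Tcf7/Lef1 cells. Kit had 5 UMIs there, 4.06 CPM (1.32 to 9.47), and was not tested, and Ly6a was lower. The 5 summed to 47.9 CPM against 104 CPM. Of the endothelial markers Kdr, Stab2 and Cdh5 were at 0, whereas Pecam1, which T cells also express, was at 66.5 CPM (52.9 to 82.6) against 10.1 CPM, with a UMI in 18.5% and 2.84% of the cells. The part of these transcripts in the differences was not tested.

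The levels changed by steps over the rule sum, and the cells just outside the threshold lay between those without rule UMIs and the Tcf7/Lef1 cells. S1pr1 went from 25.2 CPM in the ungated cells with a sum of 0 through 89.8 CPM (70.1 to 113) at 2 to 148 CPM (108 to 199) at 3 and 241 CPM at 6 or more, with overlapping intervals on the 2 sides of the threshold. Igfbp4 was at 1.83 CPM and 7.46 CPM at 0 and 1, at 16.4 CPM (8.75 to 28.1) at 2 and, without overlap, at 72.6 CPM (45.5 to 109.9) at 3, and reached 179 CPM at 6 or more. Nsg2 was at 8.12 CPM at 0, 60.7 CPM (44.7 to 80.5) at 2, 46.2 CPM (25.2 to 77.5) at 3 and 80.9 CPM at 6 or more. Cd24a stood at 6.70 CPM and 7.46 CPM at 0 and 1, at 26.5 CPM (16.4 to 40.6) at 2, and at 59.4 CPM (35.2 to 93.8), 105 CPM and 112 CPM in the 3 groups of Tcf7/Lef1 cells.

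The effector genes ran the other way. Gzmb fell off from 1490.4 CPM at a sum of 0 through 942 CPM at 1 and 491 CPM (443 to 542) at 2 to 287 CPM (229.9 to 354) at 3 and 183 CPM (148 to 224) at 6 or more. Ifng went from 905 CPM at 0 to 565 CPM (514 to 620.0) at 2, 353 CPM (289 to 427) at 3 and 196 CPM at 6 or more. Ccl5 was at 13870.4 CPM at 0, at 10630.5 CPM at 2, at 7847 CPM at 3 and at 3416 CPM at 6 or more. Here the intervals on the 2 sides of the threshold did not overlap for any of the 3 genes. The ribosomal-protein share of a cell moved along with the sum, with medians of 24.95% at 0, 31.0% at 2, 32.2% at 3 and 34.1% at 6 or more, and its part in these levels was not tested.

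Ly6c2, a gene of the surface antigen Ly-6C, followed neither course. It was at 557 CPM at 0, 763 CPM at 1 and 852 CPM (789 to 919) at 2, at 934 CPM (828 to 1049) at 3 and 788 CPM (704 to 878) at 4 or 5, and at 464 CPM (407 to 527) at 6 or more. Over all Tcf7/Lef1 cells it was at 687 CPM (642 to 735) against 371 CPM, a ratio of 1.85 (1.72 to 1.99), and against the other cells outside the gates its log2 ratio was 0.10. In the list of Ly6 genes and Thy1, 1 of 6 was higher, Ly6c1 at 42.2 CPM (31.5 to 55.3) against 10.2 CPM, and 1 lower, Ly6a at 43.8 CPM against 103 CPM. Cd8b1 was concentrated in the cells with most rule UMIs, at 29.7 CPM (13.6 to 56.4) at 3, 58.5 CPM at 4 or 5 and 143 CPM (112 to 179) at 6 or more.

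**Figure D4:**
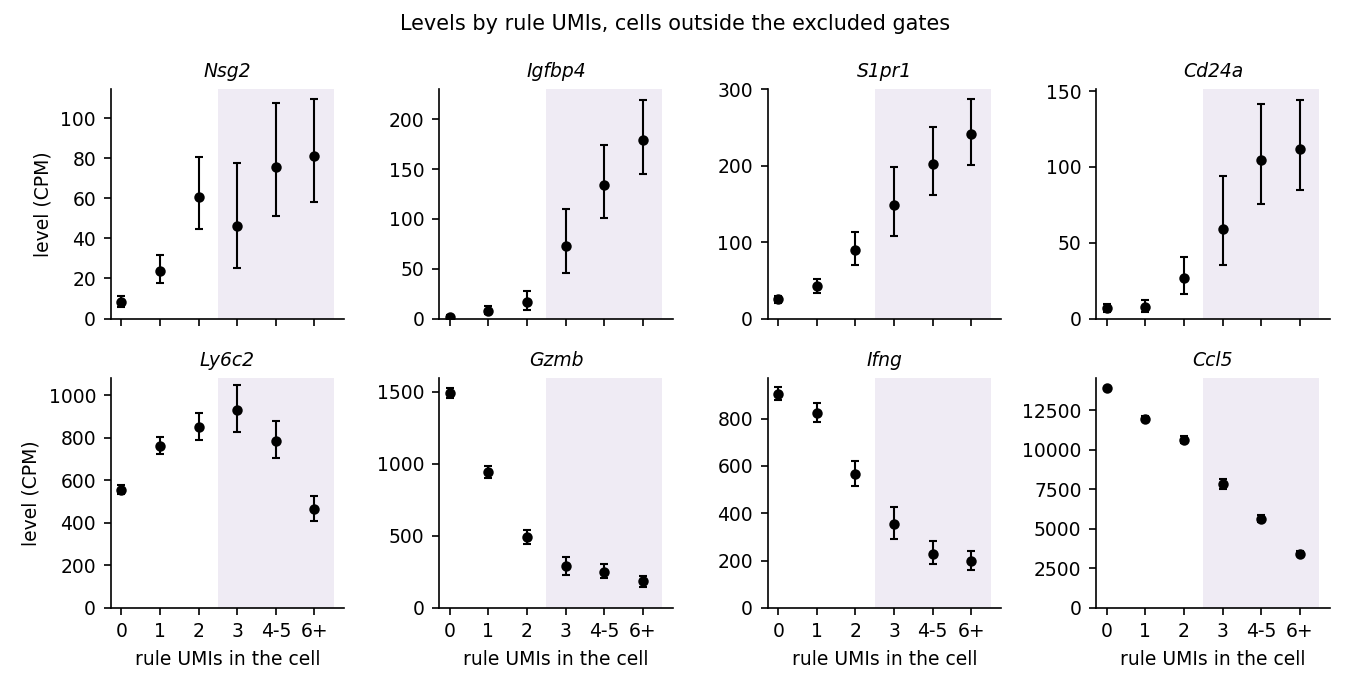
Level in CPM of 8 genes in ungated liver cells by the number of rule UMIs in the cell, with exact Poisson 95% intervals as bars and the Tcf7/Lef1 cells shaded. Nsg2, Igfbp4, S1pr1 and Cd24a are highest in the cells with most rule UMIs, Gzmb, Ifng and Ccl5 are lowest there, and Ly6c2 peaks at 934 CPM at a sum of 3.

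Genes outside the rule also varied within the Tcf7/Lef1 cells, which were split by a UMI of 1 rule gene. The threshold on the sum ties the 5 rule genes to each other, since a cell without one of them had to reach 3 UMIs on the rest. Each split is therefore also given for the cells that reached 3 UMIs on the other 4 genes alone, so that the gene of the split chose no cell. This second form was added after seeing the data. The 143 cells with a Sox4 UMI were compared with the 246 without, on 2586 genes with at least 50 UMIs over both: 42 (1.62%) were at least 2-fold higher in the cells with Sox4 and 17 (0.657%) lower, with a median log2 ratio of 0.16. The median depths were 2753 and 2866.5 UMIs, and the ribosomal-protein shares 30.4% and 36.5%. With the threshold on the other 4 genes, 98 cells with Sox4 were left beside the same 246, and of 2279 genes 44 (1.93%) were higher and 24 (1.05%) lower.

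Sox4 is a factor that acts early in γδ T cell development. Of 6 tested genes of the immature γδ T cell list 4 were higher with Sox4 and none lower. Cd24a was at 190.5 CPM (152 to 235) in the cells with Sox4 and 42.3 CPM (29.1 to 59.3) in those without, with a UMI in 23.8% and 7.72% of them. Tox, a chromatin factor of developing T cells, was at 171 CPM (135 to 213) against 53.8 CPM (38.8 to 72.7), with a UMI in 36.4% and 12.2%, and Ccr9 at 233 CPM (190.2 to 282) against 92.2 CPM (72.1 to 116). Hes1 was at 109 CPM against 14.1 CPM, but with a UMI in only 8.39% and 3.25% of the cells and up to 14 UMIs in 1 cell. Outside that list, Mmd was at 173 CPM against 55.1 CPM, Ramp1 at 186 CPM against 78.1 CPM, and Nr4a1, an early gene of receptor signalling, at 687 CPM (612 to 767) against 337 CPM (297 to 380.0). Ikzf2 lay just within the limit, at 408 CPM (351 to 471) against 207 CPM (177 to 242). In the 98 cells that reached the threshold without Sox4, Cd24a was at 188 CPM (142 to 243), Tox at 174 CPM (131 to 228) and Ccr9 at 253 CPM (199.99 to 317), again more than 2-fold above the cells without Sox4.

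The cells without Sox4 were higher in Ly6c2, at 944 CPM (877 to 1014) against 244 CPM (200.2 to 294), with a UMI in 52.0% of them and in 16.8% of those with Sox4. Cd8b1 was at 111 CPM (89.2 to 137) in them against 44.3 CPM (27.1 to 68.4), and Gramd3 at 265 CPM against 122 CPM. With the threshold on the other 4 genes Ly6c2 was at 286 CPM (229 to 353) in the cells with Sox4, while Gadd45b, Cd8b1 and Gramd3 lay within the limit, at log2 ratios of 0.89, −0.99 and −0.87. Klf2, at 3098 CPM (2976 to 3224) against 2142 CPM (2009 to 2281), and Ccl5, at 6384 CPM against 3262 CPM, were also higher without Sox4 within the 2-fold limit, which Ccl5 passed with the threshold on the other 4 genes, at a log2 ratio of −1.27. The homing gene S1pr1, at 213 CPM (172 to 259.6) and 201.02 CPM (171 to 235), and the marker Nsg2, at 70.9 CPM and 70.4 CPM, had overlapping intervals. Among the 17 lower genes Cd74 and Xcl1 had up to 59 and 251 UMIs in 1 cell, of 173 and 583 in all Tcf7/Lef1 cells. Their ratios without that cell were not computed. The neighbours of cells with Sox4 were Tcf7/Lef1 cells with Sox4 in 27.2% and those of cells without it in 12.6%.

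**Figure D5:**
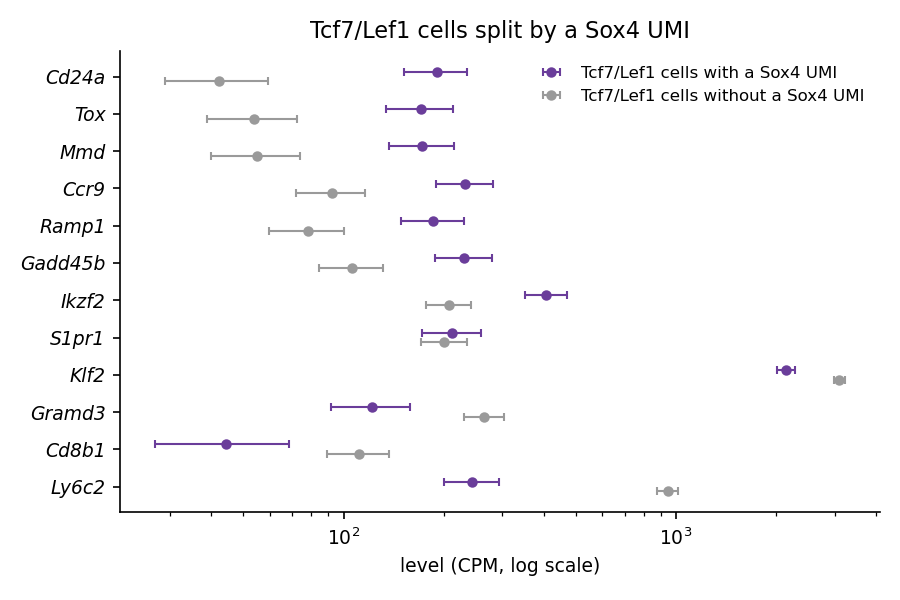
Level in CPM (log scale) of 12 genes in the 143 Tcf7/Lef1 cells with a Sox4 UMI and the 246 without, with exact Poisson 95% intervals as bars. Cd24a, Tox, Mmd, Ccr9, Ramp1 and Gadd45b are at least 2-fold higher with Sox4, Ly6c2, Cd8b1 and Gramd3 at least 2-fold lower, and the intervals of S1pr1 overlap.

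In the split by Dapl1, Tox, Ccr9 and Cd24a were lower in the cells with the UMI. In the 98 cells with a Dapl1 UMI against the 291 without, 2 of 2586 genes (0.0773%) were at least 2-fold higher and 108 (4.18%) lower, with ribosomal-protein shares of 38.3% and 31.8%. Tox was at 29.8 CPM (13.6 to 56.6) against 118 CPM (97.1 to 142), Ccr9 at 53.0 CPM (30.3 to 86.1) against 173 CPM (147 to 202), and Cd24a at 53.0 CPM against 111 CPM. Gm8369 was higher, at 335 CPM (273 to 407) against 148 CPM (125 to 175). Ly6c2 was at 984 CPM (875 to 1103) against 591 CPM (543 to 642), within the 2-fold limit. Nsg2 and S1pr1 had overlapping intervals here too. In the 71 cells with Dapl1 that reached the threshold on the other 4 genes, Tox, Ccr9 and Cd24a had 9 UMIs each, at log2 ratios of −1.52, −2.07 and −1.43 against the same 291 cells, and Gm8369 was at 325 CPM (254 to 410.1). Of 2456 genes 6 (0.244%) were then higher and 129 (5.25%) lower.

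In the 192 cells with a Ccr7 UMI against the 197 without, 14 genes (0.541%) were higher and 37 (1.43%) lower, with ribosomal-protein shares of 36.5% and 30.5%. Cd8b1 was at 135 CPM (108 to 168) against 38.8 CPM (24.9 to 57.7), Gm8369 at 267 CPM against 121 CPM and Rgs10 at 251 CPM against 118 CPM. Cd7, at 419 CPM (369 to 473) against 934 CPM (859.7 to 1014), and S100a11, at 295 CPM against 649.8 CPM, were lower in the cells with Ccr7. S1pr1 was at 219.9 CPM (184 to 260.3) and 191 CPM (158 to 228), with overlapping intervals. In the 116 cells with Ccr7 that reached the threshold on the other 4 genes, 5 of 2148 genes (0.233%) were higher and 47 (2.19%) lower than in the same 197 cells. Cd8b1 was at 148 CPM (111 to 192) there, Gm8369 at 282 CPM, Rgs10 at 263 CPM and Cd7 at 386 CPM (326 to 455), all still past the limit, and S100a11 lay within it, at a log2 ratio of −0.97.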

How the data were processed

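γδ T cells from liver and thymus were profiled with droplet-based 3′ single-cell RNA sequencing (10x Genomics v2 chemistry), 1 library per tissue. For every barcode, the authors deposited the unnormalized UMI count of each gene. The submitters' processing notes name Cell Ranger, Seurat 3.0 and the mm10 build. The thymus matrix ends in lines beyond its stated size, which were not read, and it was used only to count cells and shared barcodes. Liver cells were kept on genes and mitochondrial UMIs as in the report, and doublets were kept with no caller run. The members and gene lists were chosen with earlier results of these data known.

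UMIs were summed per group and given as CPM with exact Poisson intervals, ratios with exact conditional binomial intervals and shares with exact binomial intervals (95%, counting error only). Liver barcodes held 762 to 17429 UMIs. No test between groups was possible with 1 library, so a gene counted as different at a 2-fold ratio with at least 50 UMIs. A few genes are not reported here and stand outside all counts, lists and rankings of genes. A gene without a UMI was set against a floor of 3 counts over the group. Genes were named when they were markers, among the 15 largest or 10 smallest ratios at 100 CPM or more, in a fixed set of surface and effector genes, or, with up to 4 per list, at the extremes of the lists. Other genes of the lists, of the splits by Sox4, Dapl1 and Ccr7, and Pecam1, Cldn10 and Cd200 were picked after their values were seen. Gate levels and strata cover liver cells only, and cells past several limits count in each. Neighbours came from scikit-learn 1.9.0. Computations used Python 3.11.15, numpy 2.4.6, scipy 1.17.1 and pandas 2.3.3, plots matplotlib 3.10.9, and the ratio script was tested on simulated data. Promoter windows are those of RefSeq on GRCm38.p6. Alternatives changed 1 choice at a time.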

Additional observations from a re-analysis of the deposited data

How the results depend on the processing

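With 1 liver library no replicate could be left out. No paired analysis was possible because each tissue has a single library. The share of Tcf7/Lef1 cells depends on the threshold: it was 8.05% (650 cells) at a sum of at least 2, 3.63% (293) at 4, 2.76% (223 of 8070) with cells thinned to 1500 UMIs, and 6.24% (504) without the gates. It was 4.26%, 3.39%, 3.42% and 3.88% with Sox4, Tcf7, Lef1 or Ccr7 left out of the sum. Without the Tcf7/Lef1 cells that had a coreceptor UMI it was 3.94% (315). The number of higher genes was 237 at a sum of at least 2, 554 with the total free of mitochondrial and ribosomal-protein genes, 197 against other cells outside the gates, 914 at a 1.5-fold limit, 1265 with no minimum but 1 UMI in each group, and 140 at 200 UMIs. The number of lower genes was 656 outside the gates, 2424 at a 1.5-fold limit, 689 at 200 UMIs, and 864 with a counting interval beyond 1. In the comparison of each rule gene with the other 4, Tcf7 had log2 ratios of 2.55 with the other 4 at 3 UMIs and 2.57 after thinning, against 2.34, and Lef1 had 2.12 and 2.09, against 1.84. The cause was not tested beyond what each setting changes by construction. With the threshold on the other 4 genes, 6 genes instead of 2 were higher with Dapl1 and 5 instead of 14 with Ccr7. These rule gene settings and the counts with a counting interval beyond 1, without coreceptor cells and without shared barcodes were added after seeing the data. Of 736 further values for 41 named genes, 590 moved by less than their counting interval, 146 moved by more, and 0 reversed a called direction. Genes at few UMIs are limited by depth, since 1 UMI in the Tcf7/Lef1 cells is 0.811 CPM.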
